A study of Homo sapiens with 30 samples.

Results

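The regions described are CTCF peaks of HEK293T cells without auxin at which MBD3 was called and TET1 and TET2 were not. They number 321 of 42925 CTCF regions, or 0.748% (Wilson 95% interval 0.671% to 0.834%). They were selected on the peak calls of cells without auxin. Peaks of each list that shared 1 bp were joined into 1 region, and a CTCF region was taken when it shared at least 1 bp with an MBD3 region and none with a TET1 or TET2 region. Every count, fold enrichment and distance taken from those 4 lists is therefore a description with no test.

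ChIP-seq was performed with antibodies against CTCF, MBD3, TET1 and TET2 in CTCF-edited cells of the established kidney line HEK293T. Cells of every group were co-transfected with pcDNA3.1-ScFv-miniIAA7-mEGFP and pcDNA3.1-AtAFB2-mCherry, which supply the parts of an auxin-inducible degradation system. The groups were cells kept for 72 h with the auxin IAA (indole-3-acetic acid) at 0.5 mM, and cells kept in medium without it, for which a label names DMSO. Inputs included, there were 30 samples in 10 groups of 3, and the 3 samples of a group were pooled in each of the 8 deposited peak lists, so no value has a replicate error. The sources used here do not say whether the edited cells were 1 clone or how many took up both plasmids.

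CTCF is a zinc-finger protein that binds a long DNA motif and anchors chromatin loops together with cohesin. MBD3 belongs to NuRD, the nucleosome remodelling and deacetylase complex, which removes acetyl groups from histones and moves nucleosomes, and its methyl-CpG-binding domain binds methylated DNA poorly in mammals. TET1 and TET2 are dioxygenases that oxidise 5-methylcytosine, the first step of active DNA demethylation. In the degradation system, auxin bridges the plant receptor AFB2 and the miniIAA7 part, here carried on the ScFv construct. The protein linked to that part is then ubiquitinated and broken down.

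After joining, the lists with IAA held 63 CTCF, 50 MBD3, 325 TET1 and 3022 TET2 regions. The lists without IAA held 42925 CTCF, 6608 MBD3, 16246 TET1 and 1326 TET2 regions. Read depth is unknown for every list. It can make a list long or short on its own, and the absence of a call does not show the absence of the protein. Fold enrichment and −log10 q are the authors' values and are used only within 1 list. Intervals cover counting error over regions only. Coordinates are in hg19, counted from 1.

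Over all CTCF regions, MBD3 was called at 8.67%, TET1 at 34.4% and TET2 at 1.1%. These are the calls that chose the regions, and nothing is read from them. The 321 regions made up 8.62% (7.76% to 9.57%) of the 3722 CTCF regions with MBD3, and 1.15% of the 27969 CTCF regions with neither TET1 nor TET2. Another 26 CTCF regions had MBD3 and TET2 without TET1, and 135 had all 3. The classes set beside the 321 were the 3240 CTCF regions with MBD3 and TET1 but no TET2, the 11242 with TET1 alone, and the 27648 with none of the 3. The 474 CTCF regions with TET2, whatever else they carried, are given for some traits. Of the 321, 318 lay on chromosomes 1 to 22 and X and 3 on alternate haplotype sequences of chromosome 6. Each carried exactly 1 MBD3 region, and no MBD3 region served 2 of them.

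The CTCF regions with MBD3 but neither TET protein were of mixed strength, with a large share of very weak peaks and another share of strong ones. Their CTCF fold enrichment ran from 1.72 to 55.5 with a median of 10.2 (quartiles 4.54 and 23.0). The median was 37.8 (29.7 and 47.6) for regions with MBD3 and TET1, 26.1 (19.7 and 33.2) for those with TET1 alone and 9.41 (6.19 and 14.6) for those with none. The median therefore stood near that of bare CTCF regions, but the spread was wider at both ends. A CTCF fold under 5 was seen at 97 of the 321, or 30.2%, against 13.4% of bare regions, and a fold of 20 or more at 98, or 30.5%, against 10.6%. By −log10 q the medians were 20.1 for the 321, 176 for regions with MBD3 and TET1, and 18.6 for bare regions. The CTCF peaks had a median width of 283 bp, against 382 bp with MBD3 and TET1 and 235 bp with none.

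**Figure D1:**
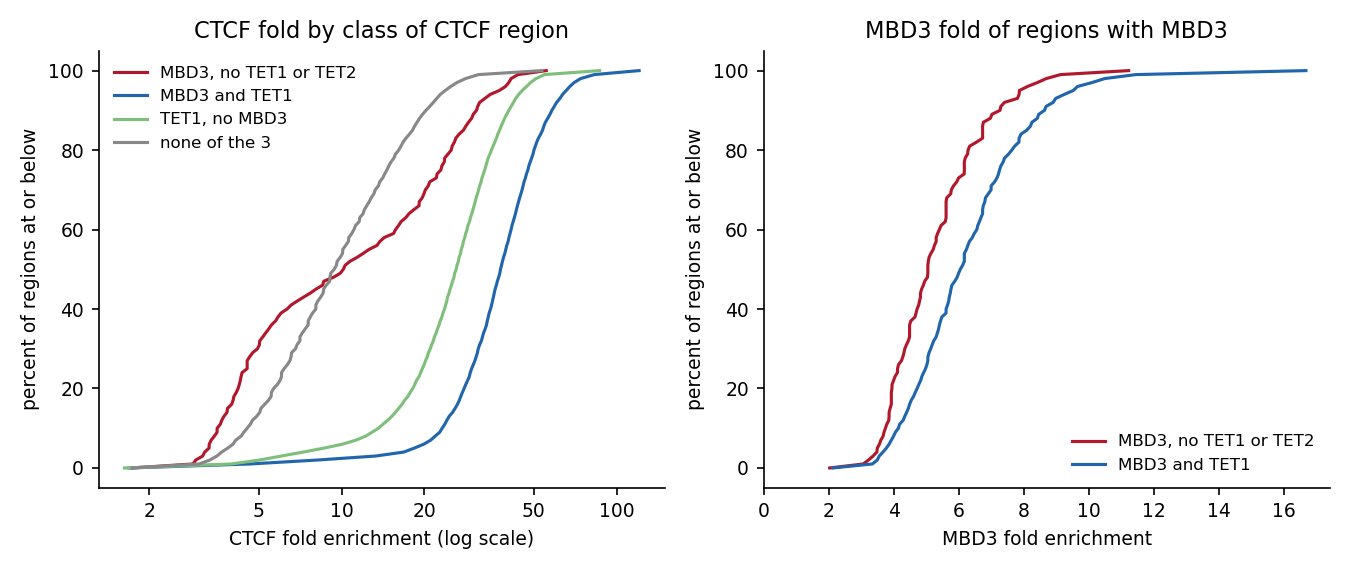
Cumulative percent of regions at or below a given fold enrichment in cells without IAA, for CTCF (left, log scale) by class of CTCF region and for MBD3 (right) in the classes that carry it. The curve of the 321 regions with MBD3 but no TET1 or TET2 starts above that of bare CTCF regions and crosses it near their medians of 10.2 and 9.41, and their MBD3 curve lies left of that of regions with MBD3 and TET1.

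The concentration in weak peaks was clearest when all CTCF regions were divided into 10 equal strata by fold. From the weakest stratum to the strongest, the strata held 98, 34, 15, 19, 16, 22, 29, 37, 32 and 19 of the 321 regions. Stratum 1, with CTCF fold of about 5 or less, held 30.5% of them (25.7% to 35.8%), against 1.14% of the regions with MBD3 and TET1 and 13.6% of the bare regions. Of the 474 CTCF regions with TET2, stratum 1 held 38.2% (33.9% to 42.6%) and the strongest 3 strata held 14.8%. Among the 321, the lowest count fell in stratum 3, and a second, lower maximum in stratum 8. The strongest 3 strata held 88 of the 321, or 27.4% (22.8% to 32.5%), against 92.2% of regions with MBD3 and TET1, 67.5% with TET1 alone and 7.74% with none. Dividing by −log10 q also gave the most regions in the weakest stratum, 102, and a second, lower maximum, of 45 in stratum 7. It left fewer at the strong end, with 4 regions in the strongest stratum.

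As a share of the CTCF regions that carried MBD3, those without TET protein ran between 35.5% and 51.5% in strata 1 to 6 and dropped steadily above that. The share was 19.2% (13.7% to 26.2%) in stratum 7, 9.74% in stratum 8, 4.05% in stratum 9 and 0.974% (0.625% to 1.52%) in stratum 10. In the same strata TET1 was called at 41.9%, 65.8%, 85.5% and 96.7% of all CTCF regions, so a strong CTCF peak with MBD3 and without TET1 was an exception. In stratum 10 by fold, 19 of 1950 CTCF regions with MBD3 were of this kind. In the strongest stratum by −log10 q they were 4 of 1974, or 0.203%. In strata 1 to 6 by fold TET1 was called at 7.87%, 5.06%, 4.26%, 4.94%, 10.4% and 21.0% of all CTCF regions. Most CTCF regions there thus lacked TET1, and the shares of 35.5% to 51.5% are to be read beside that.

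**Figure D2:**
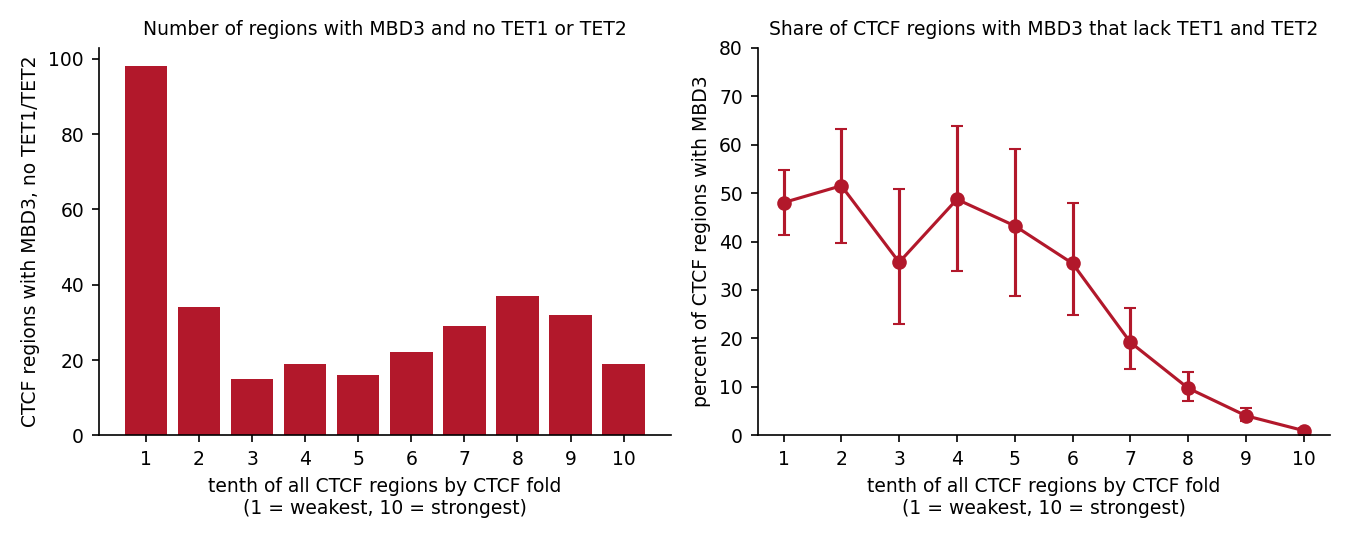
Number of CTCF regions with MBD3 but no TET1 or TET2 in each of 10 equal strata of CTCF fold (left), and the same regions as a percent of the CTCF regions with MBD3 in that stratum (right, bars are Wilson 95% intervals). The count is highest in the weakest stratum (98) and has a lower maximum in stratum 8 (37), while the share falls to 0.974% in the strongest.

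The 5 of the 321 with the highest CTCF fold lay on chromosomes 4, 6 and 15. The highest CTCF fold was 55.5, at chr4:77100975-77101392, which ranked 526 in the CTCF list. Its MBD3 peak stood at 6.17-fold with the summits 3 bp apart, and the nearest TET1 region lay 31.2 kb away. The region chr15:37175872-37176239 followed at 48.4-fold, with MBD3 at 5.05-fold and summits 63 bp apart. A pair of regions had a CTCF fold of 43.9. One, chr4:119963132-119963446, had MBD3 at 7.86-fold with the summits 1 bp apart and another CTCF region at 1.91 kb. The other, chr6:69488549-69488985, had MBD3 at 4.49-fold and the nearest CTCF region 98.1 kb away. The fifth, chr4:152722773-152723082, had a CTCF fold of 43.5 and MBD3 at 6.54-fold. At all 5 the nearest TET1 region was itself at another CTCF region, at distances from 31.2 to 382 kb.

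At the weak end the 3 lowest CTCF folds were 1.72 at chrX:58572983-58573255, 2.60 at chr11:73498898-73499077 and 2.71 at chr4:190572891-190573206. The region on chromosome X had the lowest MBD3 fold of the 321 as well, at 2.03, although its MBD3 −log10 q was 7.17. It was also 1 of the 5 CTCF regions that had been joined from more than 1 peak. The widest region was chr9:99637785-99638419, of 635 bp, with summits 312 bp apart. Next, tied at 623 bp, were chr20:35724210-35724832, with summits 362 bp apart, and chr4:175078072-175078694, with summits 17 bp apart. This last region, like the tied one on chromosome 6 described with the MBD3 folds, is added to those the naming rule takes because of the tie.

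MBD3 peaks without TET1 were weaker than those with it, and more of them lay near the calling threshold. Their fold ran from 2.03 to 11.2 with a median of 5.05 (quartiles 4.12 and 6.17), against 6.05 (4.98 and 7.26) for MBD3 at CTCF with TET1. The median −log10 q was 4.03 (2.36 and 5.85), against 7.17 (4.95 and 10.0). MBD3 −log10 q was under 2 at 49 of the 321, or 15.3% (11.7% to 19.6%), against 2.62% of the regions with TET1. It was 10 or more at 13, or 4.05% (2.38% to 6.80%), against 25.1%. Among MBD3 regions at CTCF divided into 5 equal strata of MBD3 fold, the 321 made up 16.1% of the weakest, then 10.2%, 8.71%, 4.56% and 3.49% of the strongest.

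Among CTCF peaks of like strength the order of the MBD3 folds was mixed, while −log10 q was mostly lower without TET1. The median MBD3 fold was higher without TET1 in strata 1 and 5 to 9 and lower in strata 2 to 4 and 10. In stratum 10 it was 6.29 at the 19 regions without TET1, against 6.73 at the 1898 with it. In stratum 9 it was 5.61 without TET1, against 5.38 with it, and in stratum 1 it was 4.87, against 4.57. The widest gap was in stratum 4, at 4.22 over 19 regions without TET1, against 5.87 over 14 with it. By −log10 q the regions without TET1 had the lower median in every stratum but stratum 5. In strata 7 to 10 these medians were 3.26, 4.28, 4.22 and 6.21 without TET1, against 4.24, 5.40, 6.31 and 8.43 with it.

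The highest MBD3 peaks of the 321 lay at CTCF peaks of very different strength. At chr10:20781314-20781716 MBD3 reached 11.2-fold, rank 45 of the 6608 MBD3 regions, with CTCF at 11.1-fold, summits 39 bp apart and the nearest TET1 region 586 kb away. At chr6:140303090-140303247 MBD3 was 10.7-fold and CTCF 4.31-fold. At chr13:27557554-27557734 MBD3 was 9.53-fold and CTCF 5.07-fold, but the MBD3 region shared 1 bp with the CTCF peak and the summits were 335 bp apart. At chr2:170430273-170430583 MBD3 was 9.17-fold and CTCF 18.3-fold, with the summits 5 bp apart. At chr18:57183496-57183813 MBD3 was 8.98-fold and CTCF 4.54-fold, with the summits 226 bp apart. Tied with it at 8.98-fold was chr6:112501304-112501692, a strong CTCF peak of 41.4-fold with the summits 5 bp apart.

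The summits of CTCF and MBD3 lay close together at most strong CTCF peaks and farther apart at weak ones. Over the 321 regions the median distance was 36 bp (quartiles 14 and 92, range 0 to 541 bp), against 11 bp (5 and 19) for regions with MBD3 and TET1. The summits were within 50 bp at 193, or 60.1% (54.7% to 65.3%), against 94.1% (93.2% to 94.9%). Within 100 bp there were 255, or 79.4%. At the 161 CTCF regions with MBD3 and TET2 the summits were within 50 bp at 62.1% (54.4% to 69.2%), with a median distance of 31 bp. Going out from the CTCF summit, the median CTCF fold was 17.7 for the 193 regions with MBD3 within 50 bp, 5.89 for the 62 beyond 50 and up to 100 bp, 4.54 for the 44 beyond 100 and up to 200 bp and 5.27 for the 22 beyond 200 bp.

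Split by CTCF strength, the 132 regions in strata 1 and 2 had a median summit distance of 72 bp, and 52 of them, or 39.4% (31.5% to 47.9%), had summits within 50 bp. The 72 in strata 3 to 6 had a median of 38 bp and a share of 59.7% (48.2% to 70.3%). The 117 in strata 7 to 10 had a median of 19 bp and a share of 83.8% (76.0% to 89.4%). Regions with MBD3 and TET1 showed 57.4% (44.2% to 69.7%) in strata 1 and 2, 48.8% (38.3% to 59.4%) in strata 3 to 6 and 95.9% (95.2% to 96.6%) in strata 7 to 10. The intervals of the 2 classes overlapped in strata 1 to 6 and did not in strata 7 to 10 pooled, but the classes fill those strata differently. Of the 3104 regions with MBD3 and TET1 in strata 7 to 10, 1898 were in stratum 10, against 19 of the 117 without TET protein. Within single strata the shares without TET protein were 79.3%, 78.4%, 93.8% and 84.2% in strata 7 to 10, against 80.2%, 91.1%, 94.8% and 98.2% with TET1. In strata 7 and 9 the shares of the classes were thus close, and in strata 8 and 10 they stood further apart. The weak peaks, with the longer distances, were the narrower ones, with a median width of 193 bp in strata 1 and 2 and 324 bp in strata 7 to 10.

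**Figure D3:**
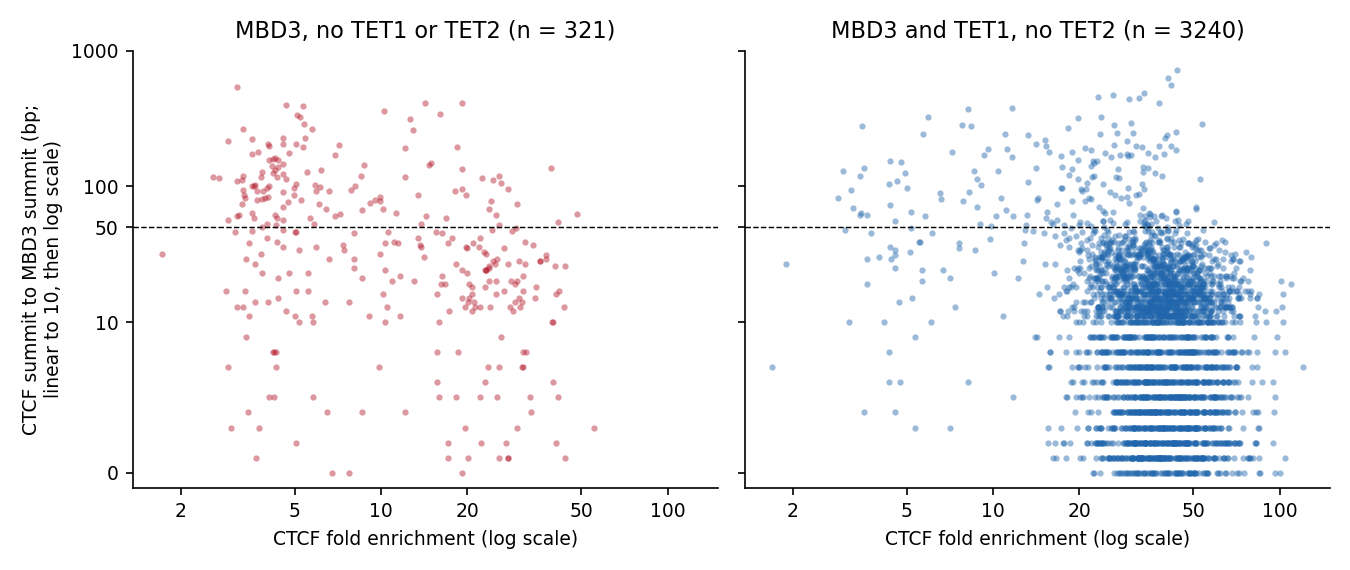
Distance between the CTCF and MBD3 summits (bp, linear to 10 and then log) against CTCF fold (log scale) in cells without IAA, 1 point per region, for the 321 regions without TET1 or TET2 (left) and the 3240 with TET1 (right); the dashed line marks 50 bp. The left panel holds a weak group spread up to 541 bp and a strong group mostly under the line, where 60.1% of the 321 lie, against 94.1% in the right panel.

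Most of the sharing was substantial rather than marginal. The CTCF and MBD3 regions shared a median of 163 bp (quartiles 150 and 188), and at 158 of the 321, or 49.2%, the whole MBD3 region lay inside the CTCF region. Only 9 shared under 50 bp. The 3 with the least were chr13:27557554-27557734 at 1 bp, chr10:70883776-70883990 at 9 bp and chr4:41321912-41322067 at 18 bp. Just outside the rule on the MBD3 side were 3 CTCF regions with an MBD3 region that did not quite touch. They were chr7:106209503-106209673, 1 bp away, with chr4:81256872-81257272 and chr8:81243162-81243335, each 3 bp away, at CTCF folds of 5.04, 21.0 and 3.53. Just outside on the TET1 side, chr10:7344346-7344533 shared 42 bp with a TET1 region, and chr13:82562081-82562298 and chr18:29238272-29238462 shared 48 bp each. Their CTCF folds were 4.33, 5.02 and 3.19, and their MBD3 folds 8.88, 11.7 and 5.38.

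TET1 was seldom far off on the scale of the genome, and a small number of the regions stood next to it. The nearest TET1 region lay at a median of 33.6 kb (quartiles 11.5 and 95.4, range 28 bp to 1628 kb), against 51.3 kb (16.6 and 139) for bare CTCF regions. TET1 lay within 1 kb of 27 of the 321, or 8.41% (5.84% to 12.0%), against 2.34% of bare regions. Within 10 kb it lay at 77, or 24.0%, against 17.4%, and within 100 kb at 246, or 76.6%, against 67.4%. TET1 this close was more frequent at weak CTCF peaks in both classes. In strata 1 and 2, 18 of 132, or 13.6% (8.80% to 20.5%), had TET1 within 1 kb, against 4.07% of bare regions of those strata. In strata 7 to 10 these were 5 of 117, or 4.27% (1.84% to 9.62%), against 1.11%.

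**Figure D4:**
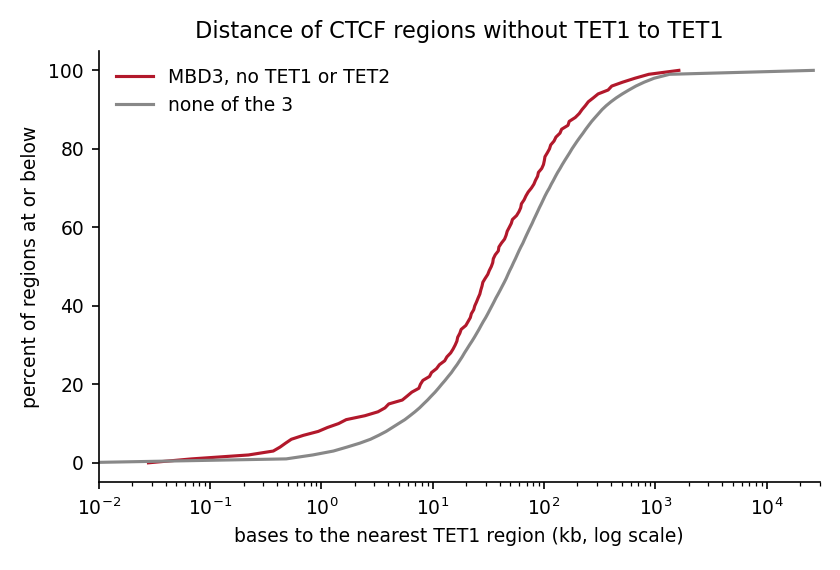
Cumulative percent of CTCF regions against the distance to the nearest TET1 region (kb, log scale) in cells without IAA, for the 321 regions with MBD3 but no TET1 or TET2 and the bare CTCF regions. The curve of the 321 lies to the left from about 0.1 kb upward, with medians of 33.6 and 51.3 kb.

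The nearest TET1 region was itself at another CTCF region for 275 of the 321, or 85.7%, against 92.7% for bare regions. Among the 27 with TET1 within 1 kb this held for 16, or 59.3% (40.7% to 75.5%), against 84.7% (81.7% to 87.3%) of the 647 bare regions that close to TET1. At 7 of the 321, or 2.18%, the MBD3 region itself ran on beyond the CTCF peak into a TET1 region. All 5 of the regions closest to TET1 were of this kind. At chr13:79618801-79618974 TET1 was 28 bp away, at chr7:92324947-92325191 it was 44 bp away, at chr13:27557554-27557734 49 bp, at chr1:212769233-212769521 65 bp and at chr13:74899553-74899730 83 bp. None of these 5 TET1 regions touched a CTCF region. Of their CTCF peaks 4 were weak, at 3.53- to 5.71-fold, and the one on chromosome 1 stood at 25.7-fold. The other 2 MBD3 regions that reached TET1 belonged to chr1:85690477-85690630, 247 bp from TET1, and chr5:82181797-82182128, 212 bp from it. These 2 were named after their values were seen.

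At the far end, chr2:141215093-141215284 lay 1628 kb from the nearest TET1 region, chr12:74415651-74416003 lay 1312 kb from it and chr6:95346785-95347111 1219 kb. Their CTCF folds were 4.03, 25.7 and 19.8, and their MBD3 folds 5.61, 3.93 and 3.86. At the region on chromosome 12 the CTCF and MBD3 summits were 1 bp apart.

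MBD3 regions away from CTCF lay near the 321 regions more often than near the other classes taken whole. Such an MBD3 region was within 10 kb of 34 of the 318 regions that have one on their sequence, or 10.7% (7.75% to 14.6%). The share was 3.25% (2.69% to 3.92%) for regions with MBD3 and TET1 and 2.46% (2.28% to 2.65%) for bare regions. The median distance was 255 kb, against 399 and 567 kb for those classes. For CTCF regions with TET2 the share within 10 kb was 7.66% (5.58% to 10.4%), and this interval overlapped that of the 321. Most of the 34 were weak CTCF peaks, and among weak peaks the regions with MBD3 and TET1 had a share with an overlapping interval. In strata 1 and 2, 25 of 132, or 18.9% (13.2% to 26.5%), had such an MBD3 region within 10 kb, against 24.5% (14.9% to 37.6%) of the regions with MBD3 and TET1 and 3.39% of bare regions in those strata. In strata 7 to 10 the shares were 5.17% (2.39% to 10.8%), 2.78% and 1.47%. Over all strata, TET2 lay within 100 kb of 20.8% (16.7% to 25.5%) of the 318 regions that have a TET2 region on their sequence. The share was 17.2% for regions with MBD3 and TET1, inside that interval, and 10.7% for bare regions.

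The median distance to the next CTCF region lay between those of the other classes. The share within 1 kb was above those of the classes without TET2 and below that of regions with TET2. Another CTCF region lay that close to 9.35% (6.62% to 13.0%) of the 321. The share was 7.38% with MBD3 and TET1, 6.78% with TET1 alone, 5.96% with none and 11.6% with TET2. All of these but the 5.96% lay inside the interval of the 321. The next CTCF region was at a median of 14.5 kb (quartiles 3.75 and 32.3), against 11.3 kb for regions with MBD3 and TET1 and 16.8 kb for bare regions. That neighbour carried TET1 in 114 cases, or 35.5%, and MBD3 in 37, or 11.5%, against 32.9% and 8.04% for bare regions. The 321 were scattered, with a median of 2569 kb to the next of their own kind and 16 of 319 within 100 kb of it. The closest pair, named after its values were seen, was chr5:91888103-91888263 and chr5:91895600-91895790, 7.34 kb apart, with CTCF folds of 3.53 and 8.07. Among those on chromosomes 1 to 22 and X, 20 of 318 lay within 5 Mb of the first base of their chromosome or of the last position listed for it. This was 6.29% (4.11% to 9.51%), against 8.67% of regions with MBD3 and TET1, 9.85% with TET1 alone and 9.04% with none.

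By chromosome, the regions without TET protein took the largest share of CTCF regions with MBD3 on chromosome 4, where they were 32 of 174, or 18.4% (13.3% to 24.8%). Chromosome 21 had 4 of 26, chromosome 13 had 17 of 111, or 15.3% (9.79% to 23.2%), chromosome 18 had 6 of 48 and chromosome 3 had 18 of 147. The lowest shares were on chromosome 22, with 1 of 55, and chromosome 17, with 6 of 227, or 2.64% (1.22% to 5.65%). Chromosome 1 had the most regions, 33 of 455, or 7.25%, and chromosome X had 8 of 107. The intervals of chromosomes 4 and 13 lay above the 8.62% over all sequences, that of chromosome 17 lay below it, and those of the other 20 chromosomes included it.

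The makeup of these sets also differed between chromosomes. On chromosome 4, 18 of the 32 fell in the weakest 2 strata of CTCF fold and 9 in the strongest 3. On chromosome 13 these were 10 and 1 of 17, on chromosome 10 they were 14 and 2 of 22, and on chromosome 16 they were 3 and 5 of 8. Most chromosomes with a high share also had many MBD3 regions away from CTCF. These made up 64.3% of MBD3 regions on chromosome 13, 61.6% on chromosome 18, 57.0% on chromosome 4 and 48.2% on chromosome 3, but 40.9% on chromosome 21. They made up 22.3% on chromosome 17 and 19.1% on chromosome 22. Chromosome 5 had 55.3% of its MBD3 regions away from CTCF and a share of 8.47%, near that over all sequences. Across 23 chromosomes the 2 shares had a Pearson r of 0.69 and a Spearman rho of 0.75. This is a description: both shares come from the same MBD3 list, and chromosomes differ in gene density, base composition and copy number.

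**Figure D5:**
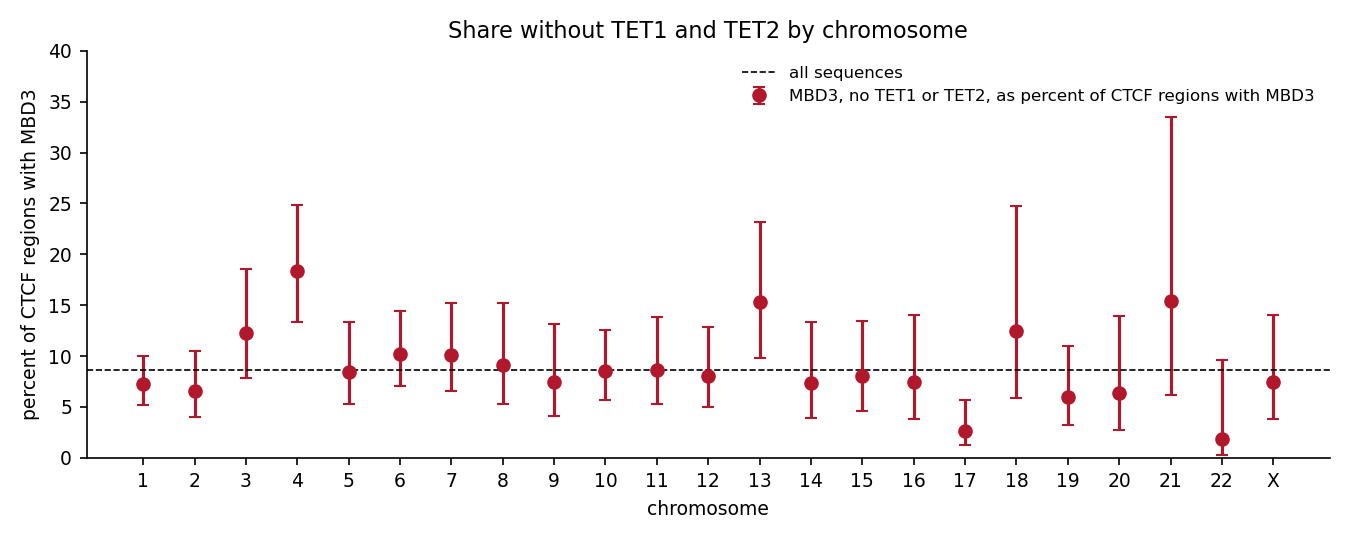
CTCF regions with MBD3 but no TET1 or TET2 as a percent of all CTCF regions with MBD3 on each chromosome in cells without IAA, with Wilson 95% intervals; the dashed line is the 8.62% over all sequences. Chromosome 4 stands highest at 18.4%, and chromosomes 17 and 22 stand lowest.

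With IAA none of the 321 regions was called for CTCF again, and none for MBD3. For CTCF this was 0 of 321, which allows a share of up to 0.935%, beside a background of 0.126% over all CTCF regions. Regions with MBD3 and TET1 were called again at 25 of 3240, or 0.772% (0.523% to 1.14%), those with TET1 alone at 0.169% and bare regions at 0.00723%. The 0 of 321 is thus not distinguishable at this number of regions from any of these shares. For MBD3 with IAA the count was 0 of 321, which allows up to 0.935%, beside a background of 0.014%, and 0 of 3240 for regions with MBD3 and TET1, which allows up to 0.0926%. The MBD3 regions themselves, of which parts can lie outside the CTCF peak, were likewise not called with IAA at any of the 321. With 63 CTCF and 50 MBD3 regions in the lists with IAA, few regions of any class could have been called again.

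None of the 321 was called for TET1 with IAA either. TET1 was called at 0 of 321, again allowing up to 0.935%, beside a background of 0.105% over all CTCF regions. Regions with MBD3 and TET1 had 9 of 3240, or 0.278% (0.146% to 0.527%). The closest approach was at chr1:1185575-1185901, with CTCF at 25.1-fold and MBD3 at 6.63-fold without IAA, where a TET1 region called with IAA lay 749 bp away. For MBD3 the closest was 1.94 kb from chr1:225843522-225843779, and for CTCF 98.8 kb from chr9:899623-899837. These 3 were named after their values were seen.

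TET2, the longest list with IAA, was called at 2 of the 321, or 0.623% (0.171% to 2.24%), beside a background of 0.0815%. The share was 0.216% (0.105% to 0.445%) for regions with MBD3 and TET1, 0.0801% for TET1 alone and 0.0543% (0.0329% to 0.0895%) for bare regions. The lower end of the interval is above the background, but it rests on 2 weak calls. The interval also overlaps that of regions with MBD3 and TET1. CTCF regions with TET2 without IAA are part of the background and were not counted on their own here. A share particular to the 321 is thus not shown. At chr6:89693268-89693556, with CTCF at 13.8-fold and MBD3 at 6.27-fold without IAA, 17 bp were shared with a TET2 region of 3.82-fold and −log10 q of 1.32, rank 2570 of 3022 by fold. A TET1 region lay 590 bp from it without IAA. At chr4:191043992-191044207, with CTCF at 2.91-fold and MBD3 at 4.05-fold, 173 bp were shared with a TET2 region of 3.97-fold and −log10 q of 1.34, rank 2342. Both −log10 q values stood just above the calling limit of q = 0.05.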

How the data were processed

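ChIP-seq peak lists of 8 groups were used, 1 list per antibody and condition. Each pools 3 samples, and samples were put in groups by their titles. Build hg19, MACS2 2.1.2, Bowtie2 2.3.4, bedtools 2.25.0, SAMtools 1.9 and FastQC 0.11.7 are listed, without roles, per the submitters' processing notes. The deposited lists give a fold enrichment per peak, a ratio made by the authors. They also give −log10 of the q-value, as deposited. Control and read depth are not given in the sources used here. The number of reads sets which weak peaks reach the threshold, so a missing TET1 call can be a weak TET1 peak.

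Peaks of a list sharing 1 bp were joined. A region took its fold and its −log10 q from the highest among its peaks, and its summit from the peak of highest −log10 q. Distances count the bases between regions. Regions with no region of the other list on their sequence were left out of that distance. CTCF strata are 10 equal parts by fold, ties by list order. Intervals are Wilson 95% and cover counting error over regions only, and the floor for a count of 0 is 3 counts. No test was run, since pooled lists hold no spread between cultures.

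Named regions, on chromosomes 1 to 22 and X, were the 5 with the highest CTCF fold, the 5 with the highest MBD3 fold, the 3 with the lowest CTCF fold, the 5 closest to and 3 farthest from TET1, those called with IAA, the 2 widest, and 3 on each edge of the rule, with ties taken by chromosome name and start. The regions, classes and rules were chosen with earlier results of these data known. Alternatives were fold of at least 5, −log10 q of at least 5 or 10, single peaks, summits within 200 bp, 50% overlap of both regions, no TET region within 1000 bp, TET2 allowed, and chromosomes 1 to 22 and X alone. Joining and distances were tested on simulated data. Python 3.11.15, pandas 2.3.3, numpy 2.4.6 and scipy 1.17.1 were used. Sequence and gene annotation of hg19 were not used here.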

Additional observations from a re-analysis of the deposited data

How the results depend on the processing

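Under 9 other settings, 73 of 98 values stayed within the counting interval of the main value, or within 1.5 times of it for the number of regions, and 25 moved. None of the 25 came with summits within 200 bp, single peaks, no TET region within 1000 bp, TET2 allowed or chromosomes 1 to 22 and X alone. With 50% overlap of both regions, 313 of 1646 CTCF regions with MBD3, or 19.0%, had no TET1 or TET2 region that met the same overlap. Their median CTCF fold was 18.6, the median summit distance 22 bp and the median distance to TET1 8125 bp. That rule applies to MBD3, TET1 and TET2 at once, so these regions can share bases with a TET1 or TET2 region below 50%. The cause of the move was not tested. With −log10 q of at least 5 in every list 103 regions were left, 4.07% of CTCF regions with MBD3, at a median CTCF fold of 18.3, MBD3 fold of 6.29, summit distance of 20 bp and distance to TET1 of 47071 bp, and 0% had TET2 with IAA. With −log10 q of at least 10 there were 11, or 1.30%, at a median CTCF fold of 22.9, MBD3 fold of 8.98, summit distance of 19 bp and distance to TET1 of 46009 bp, with 0% at TET2 with IAA and 0% on chromosome X. With fold of at least 5 for CTCF and MBD3 there were 123, or 4.76%, at a median CTCF fold of 22.2, MBD3 fold of 5.87, summit distance of 19 bp and distance to TET1 of 45258 bp. These 3 settings drop weak peaks by construction. The shares called for CTCF, MBD3 or TET1 with IAA were 0 in the main setting and stayed so under all 9 settings. They count among the 73, but with so few regions in those lists they had little room to move. The number of regions and the median MBD3 fold stayed in 6 of 9 settings. For the number, this compares the count and not which regions were counted. At 50% overlap the like count of 313 came from 1646 CTCF regions with MBD3, against 3722 in the main setting. The share of CTCF regions with MBD3 and the medians of CTCF fold, summit distance and distance to TET1 stayed in 5 of 9. No paired analysis was possible because each list pools the 3 samples of its group, and no sample could be left out. The planned look at sequence and motif was not run, since no genome of the build was used here. Unknown read depth limits every statement on a missing call.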
